A study of Mus musculus with 4 samples.

Results

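A set of 35 genes, the immediate early genes and the dual-specificity phosphatases that end MAP kinase signals, was examined in dendritic cells that lack GOLPH2. The genes were taken by symbol from a list of 25 immediate early genes (transcription factors, RNA-binding proteins and small induced proteins) and 10 phosphatases. All 35 were found in both deposited tables, which list 15310 genes for stimulated and 15394 for unstimulated cells, with 14823 genes in both. The marrow came from GOLPH2 knockout (KO) and wild type (WT) mice of the C57BL/6 strain, aged 8 weeks. GOLPH2, the product of Golm1, sits in Golgi membranes, and no source used here tells which part of the gene was removed. The 4 libraries were KO and WT cells with IFN-gamma (16 h) followed by LPS (4 h), called stimulated below, and KO and WT cells with neither agent, called unstimulated. Each group is 1 library, and no source used here tells whether marrow of several mice was pooled.

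Immediate early genes are transcribed within minutes of a signal and need no new protein for it. Growth factors, cytokines and the LPS receptor TLR4 reach them through the MAP kinases ERK, JNK and p38 and through NF-kB. The FOS and JUN proteins they encode pair into the transcription factor AP-1, the ZFP36 proteins mark cytokine messages for decay, and the dual-specificity phosphatases remove phosphate from the MAP kinases and so close a feedback loop. In macrophages and dendritic cells this loop sets how long p38 and JNK stay active after LPS and how much cytokine is made.

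Promoters of this kind are known for short elements through which such signals act. RefSeq (GRCm38.p6) gave a promoter for 28 of the 35 genes, each searched on both strands over the 250 bases before the start. Shown are the last 150 bases before the start, 5′ to 3′, of Fos and Jun, which give the AP-1 families their names, of the phosphatase with the highest level per length (Dusp1), and of 3 further phosphatases that differed between the KO and WT libraries as described below (Dusp5, Dusp10 and Dusp16). Capitals mark matches on either strand to the cyclic AMP response element (CRE, TGACGTCA), its core (TGACG, which also lies within every full CRE), the variant of the element known from the Jun promoter (TGACATCA), the CArG box of serum response factor, and the other motifs named below.
Fos: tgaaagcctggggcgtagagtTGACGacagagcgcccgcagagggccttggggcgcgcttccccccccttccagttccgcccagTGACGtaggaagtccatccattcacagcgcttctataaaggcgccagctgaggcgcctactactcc
Jun: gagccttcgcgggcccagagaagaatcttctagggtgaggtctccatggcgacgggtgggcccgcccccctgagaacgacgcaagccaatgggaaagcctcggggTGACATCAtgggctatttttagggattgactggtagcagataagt
Dusp1: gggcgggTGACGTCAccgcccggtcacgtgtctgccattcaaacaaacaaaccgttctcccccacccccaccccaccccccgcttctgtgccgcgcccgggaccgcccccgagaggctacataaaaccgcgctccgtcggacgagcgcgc
Dusp5: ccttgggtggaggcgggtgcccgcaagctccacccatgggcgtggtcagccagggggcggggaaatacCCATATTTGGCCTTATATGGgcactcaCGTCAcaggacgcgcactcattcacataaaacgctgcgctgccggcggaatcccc
Dusp10: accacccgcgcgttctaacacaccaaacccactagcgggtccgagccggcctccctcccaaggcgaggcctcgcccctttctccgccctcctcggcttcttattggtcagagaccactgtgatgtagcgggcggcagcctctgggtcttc
Dusp16: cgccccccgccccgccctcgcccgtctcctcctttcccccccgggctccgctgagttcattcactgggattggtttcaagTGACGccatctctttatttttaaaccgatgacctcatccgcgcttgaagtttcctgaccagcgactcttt
These stretches lie at chr12:85473740-85473889, plus strand (Fos), chr4:95052223-95052372, minus strand (Jun), chr17:26508473-26508622, minus strand (Dusp1), chr19:53528995-53529144, plus strand (Dusp5), chr1:184034231-184034380, plus strand (Dusp10) and chr6:134792629-134792778, minus strand (Dusp16). Fos carries 2 cores, Jun the TGACATCA variant, Dusp1 a full CRE, and Dusp5 a pair of CArG boxes side by side with a core after them. Dusp16 has 1 core, and the 150 bases of Dusp10 hold none of the motifs searched. Over the 250 bases, 14 of the 28 promoters (50%) hold the core, against 17.9% of 27025 RefSeq promoters of the same length. The full CRE is in 3 of them (Btg2, Dusp1 and Dusp8; 1.62% of all promoters), TGACATCA in 3 (Jun, Klf6 and Dusp10; 3.02%), the CArG box in 2 (Dusp5 and Zfp36; 1.40%), and the kappaB element in 4 (Fos, Fosb, Fosl2 and Ier3; 3.75%). The AP-1 site TGANTCA is in 1 (Zfp36l1; 6.87%), the interferon-gamma activation site TTCNNNGAA in 2 (Zfp36 and Dusp14; 7.18%), and the EGR site GCGTGGGCG in 0 (0.540%). These matches describe letters in a window and not binding in these cells.

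The authors' tables give a log2 ratio of KO over WT and a p-value for each gene. Ratio and p together fix the whole numbers of reads behind them, which gave the reads of all 35 genes in each of the 4 libraries and library totals, to the nearest 1000, of 36782000 reads (KO) and 37712000 reads (WT) for stimulated cells and of 39558000 reads (KO) and 34646000 reads (WT) for unstimulated cells. Levels are given as CPM (reads per 1000000 reads of the library total), and as RPKM (CPM per kilobase of exon) where genes are set against each other. Ratios are log2 of KO over WT in CPM, and ± is the counting SE, which leaves out all differences between cultures. Genes are termed called if the deposited p, Benjamini-Hochberg adjusted over the table, was under 0.001; a call sets 1 library against 1 other, so it compares libraries and not genotypes, with no replicate check. Golm1 itself had 190 reads in KO and 779 in WT stimulated cells, 25% of the WT level, and its ratio in unstimulated cells was −2.09, or 23.5% of WT. Of the dendritic cell markers, Itgax (CD11c) was at 452 CPM in KO and 371 CPM in WT stimulated cells; 7 of 8 dendritic cell markers were listed (Cd209a was not), and they summed to 1688 CPM (KO) and 1539 CPM (WT) there. Of these markers 4 were called higher in KO and 0 lower in each state. Summed macrophage markers (9 of 10 listed, Adgre1 was not; 4 called higher and 1 lower in each state) were at 868 CPM (KO) and 856 CPM (WT) in stimulated cells and at 999 CPM (KO) and 1032 CPM (WT) in unstimulated cells. Summed fibroblast markers (10 of 10 listed; 6 called higher and 1 lower in stimulated, 4 higher and 0 lower in unstimulated cells) were at 87.7 CPM (KO) and 34.9 CPM (WT) in stimulated cells and at 41.3 CPM (KO) and 24.4 CPM (WT) in unstimulated cells. Neutrophil markers summed to 109 and 103 CPM (KO and WT, 5 of 9 listed, stimulated) and to 127 and 147 CPM (KO and WT, 7 of 9 listed, unstimulated), and lymphocyte markers to between 3.69 and 6.12 CPM. Of the neutrophil markers, 0 were called in stimulated cells and 1 in unstimulated cells (Mmp8, lower in KO at −0.25 ± 0.035). Heat shock genes, which mark handling stress, summed to 2194 and 2138 CPM (KO and WT, stimulated) and to 2317 and 2298 CPM (KO and WT, unstimulated). Of these 10 genes, 2 were called higher and 1 lower in stimulated KO cells. Hspa8 (0.040 ± 0.0089) was called higher and Hspa1b (−0.31 ± 0.062) lower in unstimulated KO cells. Hspa8 alone gave 1450 CPM (KO) and 1410 CPM (WT) of the unstimulated sums. The part of these shifts in the differences below was not tested.

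Most of the set stood within 1.2-fold between KO and WT. In each state 29 of the 35 genes did, against 71.6% of all genes in stimulated and 74% in unstimulated cells. Genes of few reads scatter more by counting error, and these shares were not matched for depth. The summed level of the 35 genes was 6622 CPM in KO and 6548 CPM in WT stimulated cells, and 6526 CPM in KO and 6615 CPM in WT unstimulated cells. In stimulated cells 7 genes were called higher in KO (Jun, Jund, Egr2, Ier3, Zfp36l1, Zfp36l2 and Dusp5; background 5.36% of all genes) and 2 lower (Junb and Dusp16; background 6.54%). At 1.5-fold or more 0 of these 9 remained (background 0.425% higher and 0.594% lower), and the median ratio of the set was 0.0016, against 0.0052 over all genes. In unstimulated cells 6 genes were called higher (Fosl2, Jun, Atf3, Myc, Zfp36l2 and Dusp4; background 4.7%) and 4 lower (Jund, Btg1, Dusp1 and Dusp10; background 4.27%), with a median of −0.028 against 0.0013 over all genes. Myc was the 1 gene at 1.5-fold or more, in the higher direction (background 0.409% higher and 0.299% lower). In either direction, 9 genes were called in stimulated cells (background 11.9%) and 10 in unstimulated cells (background 8.96%).

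Calls follow depth, so the counts are also set beside genes above a floor of 1000 reads. Depth above that floor was not matched, so these shares are not corrected for depth. Genes with 1000 reads or more in both libraries were called in 26.3% of cases in stimulated cells (12% higher, 14.3% lower) and in 19% in unstimulated cells (9.75% higher, 9.29% lower). Of the set, 20 genes were that deep in each state. In stimulated cells 9 of them (45%) were called, 7 higher and 2 lower, and in unstimulated cells 8 (40%), 5 higher and 3 lower. Among the 15 shallower genes, 0 were called in stimulated and 2 (Myc and Dusp10) in unstimulated cells. RNA of fewer cells of a type and less RNA per cell cannot be told apart in these bulk libraries.

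**Figure D1:**
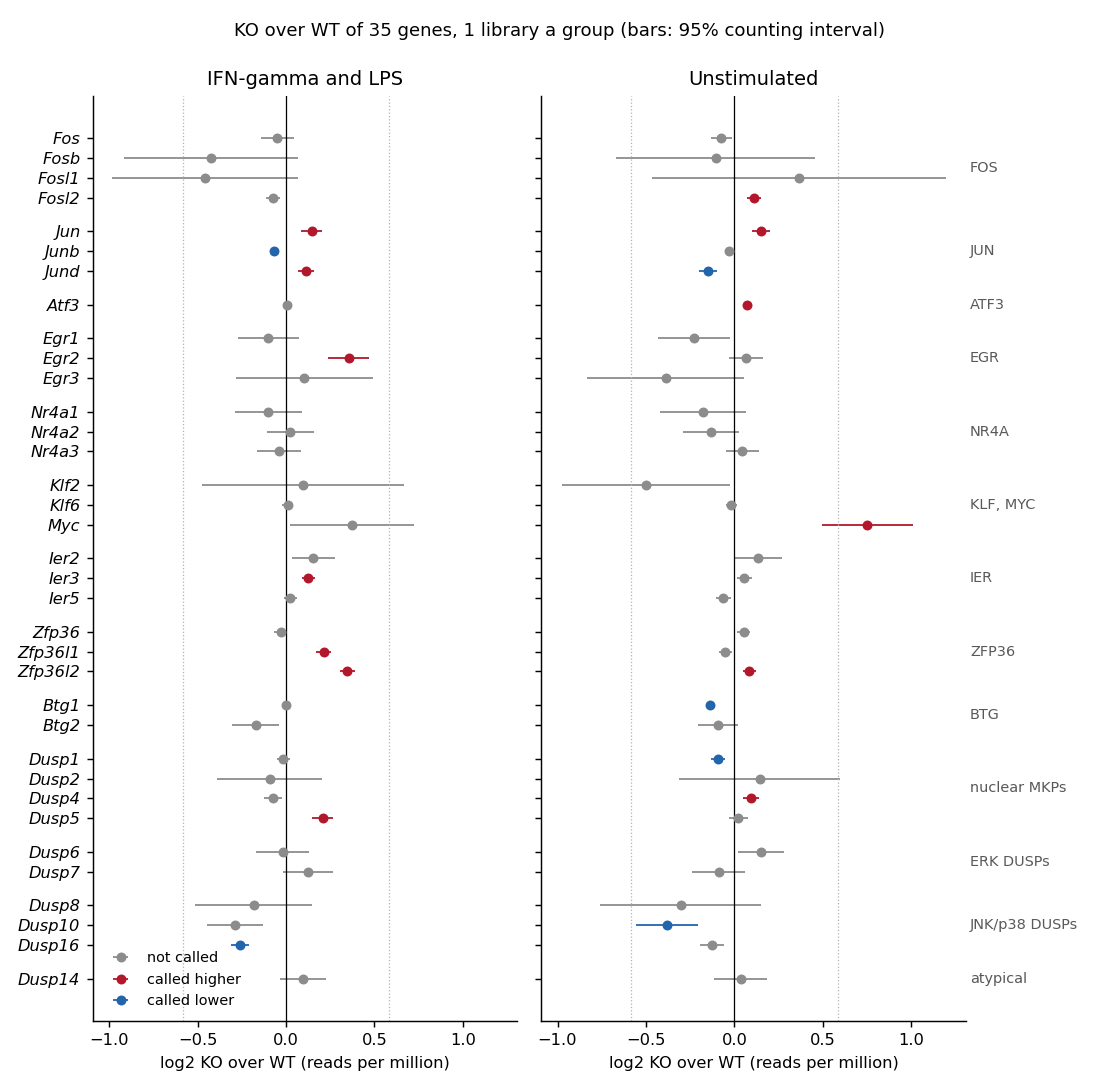
Log2 ratio of KO over WT (x axis) for each of the 35 genes (rows, grouped by role), after IFN-gamma and LPS (left) and unstimulated (right). Points are 1 library against 1 other, bars the 95% counting interval, and dotted lines 1.5-fold. The called genes lie between −0.38 and 0.35 apart from Myc, at 0.75 in unstimulated cells.

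The deposited ratio is one of raw reads, and in unstimulated cells the KO library was the deeper one, which moved the median gene to 0.193 on that scale. In the authors' deposited table, 30 of the 35 ratios of unstimulated cells lay above 0, against 16 after division by the library totals. For stimulated cells the numbers were 13 as deposited and 18 after division. Each ratio given below for unstimulated cells that lies between −0.191 and 0 is therefore above 0 as raw reads, and each ratio for stimulated cells between 0 and 0.036 is below 0.

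Per length, the set spanned from 0.211 to 404 RPKM. Atf3, a bZIP factor that restrains Toll-like receptor-induced cytokine genes, was at 404 and 403 RPKM in KO and WT stimulated cells and at 357 and 339 RPKM in KO and WT unstimulated cells. Junb was at 377 and 395 RPKM (KO and WT, stimulated) and at 333 and 339 RPKM (KO and WT, unstimulated), below Atf3 in 3 libraries and level with it in WT unstimulated cells. Next in order were Ier3 and Btg1 in stimulated cells, at 286 and 262 RPKM (KO and WT) and at 245 RPKM in both libraries, whereas Btg1 stood above Ier3 in both unstimulated libraries. The lowest were Fosb, Fosl1, Egr3, Klf2 and Dusp8, each under 1 RPKM in both stimulated libraries, and their ratios are poorly fixed. Egr1 was at 3.21 and 3.44 RPKM in KO and WT stimulated cells.

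**Figure D2:**
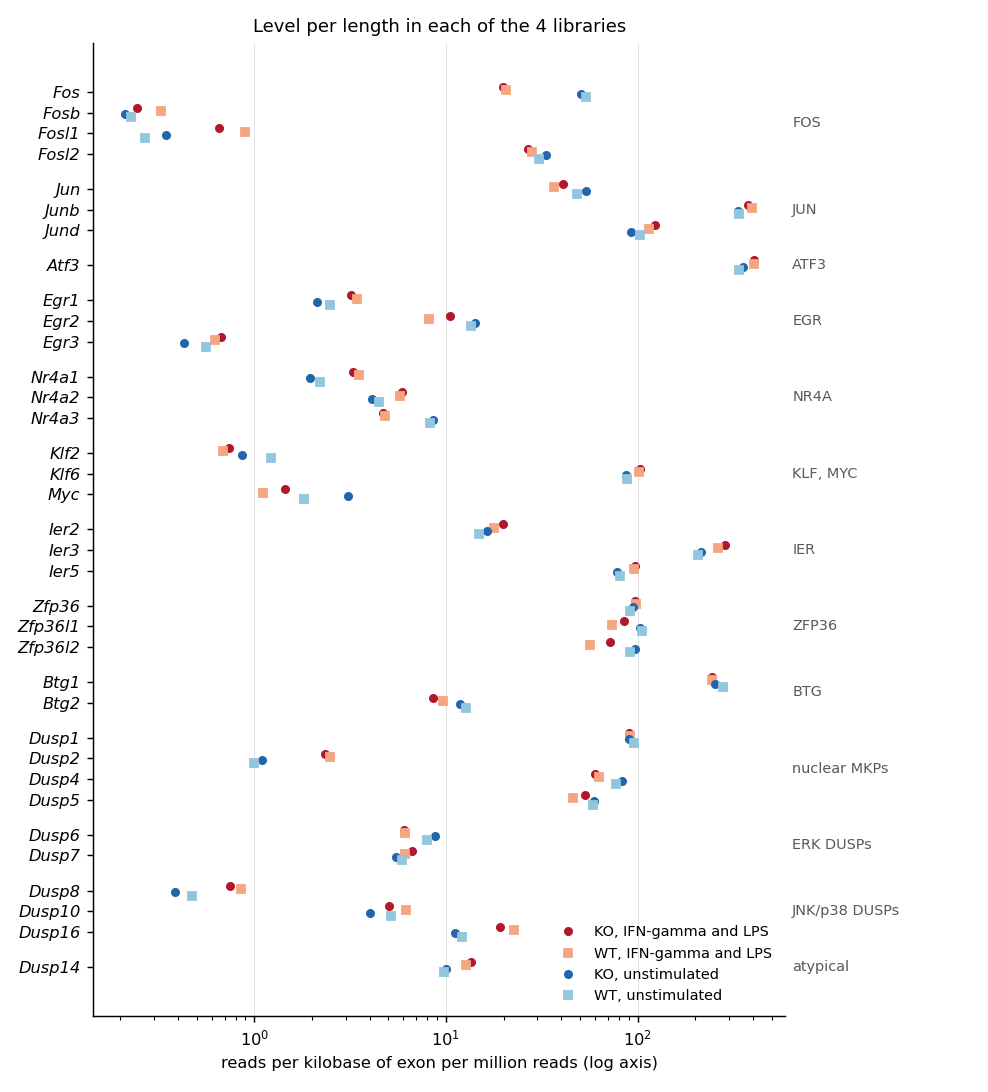
Level of each gene in RPKM (x axis, log scale) in the 4 libraries; circles are KO and squares WT, red stimulated and blue unstimulated. The genes span from 0.211 to 404 RPKM, and for Fos the 2 stimulated points lie well below the 2 unstimulated ones.

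The FOS proteins, which must pair with a JUN protein to bind DNA, were led by Fos and Fosl2. Fos was at 46.7 CPM in KO and 48.3 CPM in WT stimulated cells, and at 119.5 CPM in KO and 126 CPM in WT unstimulated cells. The 2 genotypes lay close together and the 2 states far apart. The ratios were −0.049 ± 0.049 and −0.074 ± 0.030 (stimulated and unstimulated), neither called. Fosl2, which encodes FRA-2, was at 258 CPM in KO and 272 CPM in WT stimulated cells (−0.075 ± 0.021, not called, adjusted p 0.0022), and at 321 CPM in KO and 297 CPM in WT unstimulated cells (0.11 ± 0.019, called higher). Its KO value was thus below WT in one state and above it in the other. Fosb and Fosl1 had between 19 and 77 reads a library and were not called in either state. Of the exon length of Fosl1, 57.2% is shared with Ccdc85b on the opposite strand in GENCODE; the kit keeps strand, but no source used here gives the strand setting of the counting, so those reads cannot be told apart.

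Among the JUN proteins, Jun (chr4:95049034-95052222, GRCm38) was called higher in KO in both states. It was at 129.5 CPM in KO and 117 CPM in WT stimulated cells, and at 171 CPM in KO and 154 CPM in WT unstimulated cells. The ratios, 0.14 ± 0.030 (adjusted p 1.95e-05) and 0.15 ± 0.026 (adjusted p 1.54e-07), differed by less than their counting error. Junb, which competes with Jun for partners, was at 867 CPM in KO and 908 CPM in WT stimulated cells (−0.067 ± 0.011, called lower), and at 766 CPM in KO and 781 CPM in WT unstimulated cells (−0.028 ± 0.012, not called). The stimulated fold was 0.955, a small difference that passes the threshold on 31898 reads in KO and 34247 in WT. Jund (chr8:70698949-70700616) was called in opposite directions. It was at 207 CPM in KO and 191 CPM in WT stimulated cells (0.11 ± 0.024), and at 154 CPM in KO and 171 CPM in WT unstimulated cells (−0.15 ± 0.026). As raw reads, in the authors' deposited table, the unstimulated Jund ratio was 0.042, so its direction there rests on the library totals. Of Jund's exon length 52.6% lies under the antisense gene Gm11175, and of Jun's 7.28% under Junos. Of Junb's, 7.52% is shared with Prdx2 on the opposite strand. Reads of these pairs cannot be told apart without the strand setting.

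Atf3 had 869.7 CPM in KO and 867 CPM in WT stimulated cells, a ratio of 0.0038 ± 0.011. In unstimulated cells it was at 768 CPM in KO and 729 CPM in WT, a ratio of 0.074 ± 0.012 that was called higher. EGR factors are zinc finger proteins, and Egr2 was the member of this family that was called. Egr2 was at 35.5 CPM in KO and 27.8 CPM in WT stimulated cells, a ratio of 0.35 ± 0.060 with an adjusted p of 5.12e-08. In unstimulated cells it was at 47.9 CPM in KO and 45.8 CPM in WT (0.066 ± 0.049, not called). Egr1 had ratios of −0.10 ± 0.087 and −0.23 ± 0.10, and Egr3 of 0.10 ± 0.20 and −0.39 ± 0.23 (stimulated and unstimulated), none called.

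The orphan nuclear receptors Nr4a1, Nr4a2 and Nr4a3, which are induced by antigen receptor and inflammatory signals, were not called in either state. Their ratios lay between −0.10 and 0.025 in stimulated and between −0.18 and 0.046 in unstimulated cells, with counting SEs between 0.047 and 0.12. Klf6, a zinc finger factor of activated myeloid cells, was at 450.4 CPM in KO and 447 CPM in WT stimulated cells, and at 381 CPM in KO and 385 CPM in WT unstimulated cells. With ratios of 0.0096 ± 0.016 and −0.016 ± 0.017, it was among the deep genes that differed least. Klf2, which restrains inflammatory gene expression in monocytes, had between 48 and 78 reads a library and was not called.

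Myc (chr15:61985391-61990374), a driver of growth and proliferation, gave the largest ratio of the set. In stimulated cells it had 144 reads in KO and 114 in WT, and in unstimulated cells 331 in KO and 172 in WT. The KO library was above the WT library in both states, on low counts. The ratios were 0.37 ± 0.18 (stimulated, not called, adjusted p 0.135) and 0.75 ± 0.13 (unstimulated, called, 1.69-fold, adjusted p 2.39e-07). For unstimulated cells, Myc was set only against genes measured at least as precisely as 50 reads in both libraries would allow. Of these genes, and not of all genes, 0.578% had a ratio of larger size. Genes of fewer reads, which scatter more, were left out of that share. The stimulated minus unstimulated difference for Myc, −0.38 ± 0.22, is under 3 counting SEs. In the authors' deposited table Myc is the 1 gene of the 35 marked as differentially expressed, with a log2 ratio of 0.944, and it is marked there as a key gene too.

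The IER genes encode small induced proteins, and Ier3 protects cells from death after TNF. Ier3 was at 324 CPM in KO and 297 CPM in WT stimulated cells (0.13 ± 0.019, called higher), and at 244 CPM in KO and 234 CPM in WT unstimulated cells (0.057 ± 0.022, not called). Ier2 had ratios of 0.15 ± 0.062 and 0.14 ± 0.069 and Ier5 of 0.025 ± 0.019 and −0.062 ± 0.021 (stimulated and unstimulated), none called.

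The ZFP36 proteins bind AU-rich elements of messenger RNA and bring in the CCR4-NOT deadenylase, and 2 of the 3 were called higher in stimulated KO cells, against 5.36% of all genes tested and 12% of those with 1000 reads or more in both libraries. Zfp36l2 (chr17:84183931-84187947) was at 254 CPM in KO and 199.6 CPM in WT stimulated cells, and at 340.1 CPM in KO and 321 CPM in WT unstimulated cells. Its ratios were 0.35 ± 0.022 (adjusted p 8.92e-53) and 0.085 ± 0.018 (adjusted p 5.84e-05), so it was called higher in both states, as Jun was. Zfp36l1 was at 253 CPM in KO and 219 CPM in WT stimulated cells (0.21 ± 0.022, called higher), and at 306 CPM in KO and 317 CPM in WT unstimulated cells (−0.050 ± 0.019, not called, and above 0 as raw reads). Zfp36, which encodes tristetraprolin, was at 335 CPM in KO and 342 CPM in WT stimulated cells, and at 329 CPM in KO and 317 CPM in WT unstimulated cells, and was not called. Within the family, Zfp36 took 38.1% of the RPKM in KO and 43.2% in WT stimulated cells, and Zfp36l2 28.4% in KO and 24.8% in WT. In unstimulated cells Zfp36 took 32.3% in KO and 31.7% in WT, and Zfp36l2 32.8% in KO and 31.5% in WT. Of the exon length of Zfp36l1, 55.9% lies under the antisense gene Gm26669, and its reads cannot be told apart from those.

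ZFP36 target messages were a list of 10 cytokine and enzyme genes. In stimulated KO cells 1 of them was called higher and 5 lower, with Ptgs2 at −0.16 ± 0.0065. Il6 stood further below 0 there, at −0.22 on 22928 reads in KO and 27442 in WT. In unstimulated KO cells 0 were called higher and 5 lower, with Cxcl1 at −0.67, Il6 at −0.56 and Cxcl2 at −0.56. The list median was −0.12 in stimulated and −0.48 in unstimulated cells, against 0.0052 and 0.0013 over all genes. The list was written with earlier results of these data known, and no relation to the ZFP36 genes was tested. Of 18 listed CCR4-NOT and decay genes, 0 were called higher and 2 lower in stimulated KO cells (Cnot1 at −0.14 ± 0.024 and Rc3h1 at −0.19 ± 0.043), and 0 higher and 1 lower in unstimulated KO cells (Cnot11 at −0.24 ± 0.059). The background for both lists was 5.36% called higher and 6.54% lower in stimulated cells, and 4.7% and 4.27% in unstimulated cells. BTG proteins also bind the CCR4-NOT deadenylase. Btg1, with 47618 to 52582 reads the most deeply read gene of the set, was at 1295 CPM in KO and 1293 CPM in WT stimulated cells, and at 1329 CPM in KO and 1463 CPM in WT unstimulated cells. Its ratio was 0.0016 ± 0.0093 in stimulated and −0.14 ± 0.0090 in unstimulated cells, where it was called lower; as raw reads in the authors' deposited table the unstimulated sign turns, to 0.053. Btg2 had ratios of −0.17 ± 0.067 and −0.094 ± 0.058 (stimulated and unstimulated), neither called.

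The 10 phosphatases gave 1 gene called higher and 1 lower in stimulated KO cells, and 1 higher and 2 lower in unstimulated KO cells. Over all genes tested, 5.36% were called higher and 6.54% lower in stimulated cells, and 4.7% higher and 4.27% lower in unstimulated cells. Of the nuclear enzymes, Dusp1 (MKP-1), the main brake on p38 and JNK after LPS, was at 300.1 CPM in KO and 303 CPM in WT stimulated cells (−0.015 ± 0.019). In unstimulated cells it was at 298 CPM in KO and 317 CPM in WT (−0.092 ± 0.019, called lower, adjusted p 2.15e-05), with a raw-read ratio in the authors' deposited table that turns to 0.099. Dusp4 was at 164 CPM in KO and 172 CPM in WT stimulated cells (−0.075 ± 0.026, not called), and at 227 CPM in KO and 212 CPM in WT unstimulated cells (0.095 ± 0.023, called higher). Dusp5, which acts on ERK in the nucleus, was at 132 CPM in KO and 114 CPM in WT stimulated cells, and at 146 CPM in KO and 144 CPM in WT unstimulated cells. Dusp5 was called higher in stimulated KO cells at 0.21 ± 0.030 (adjusted p 1.27e-10) and not called in unstimulated cells at 0.022 ± 0.028. Of its exon length, 22.1% is shared with an antisense gene, whose reads cannot be told apart. Dusp2 had between 69 and 188 reads a library and was not called.

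The cytoplasmic ERK phosphatases Dusp6 and Dusp7 were not called in either state, with ratios of −0.019 ± 0.076 and 0.12 ± 0.072 in stimulated and of 0.15 ± 0.065 and −0.087 ± 0.077 in unstimulated cells. Dusp14, an atypical phosphatase without a MAP kinase-binding domain, had ratios of 0.094 ± 0.066 and 0.037 ± 0.076 (stimulated and unstimulated) and was not called either. The phosphatases that prefer JNK and p38 over ERK, Dusp8, Dusp10 and Dusp16, all had ratios below 0 in both states, save that Dusp16 turns above 0 in unstimulated cells as raw reads. Their summed level was 168 CPM in KO and 201 CPM in WT stimulated cells, and 101 CPM in KO and 113 CPM in WT unstimulated cells, which is a log2 ratio of −0.26 and −0.16. Dusp16 (chr6:134715468-134792625) was at 148 CPM in KO and 178 CPM in WT stimulated cells, and at 86.6 CPM in KO and 94.6 CPM in WT unstimulated cells. It was called lower in stimulated KO cells at −0.26 ± 0.026 (adjusted p 2.35e-21); in unstimulated cells it stood at −0.13 ± 0.035 (adjusted p 0.00321, not called), and at 0.065 as raw reads in the authors' deposited table. Dusp10 (chr1:184013302-184075636) had 566 reads in KO and 710 in WT stimulated cells, and 481 in KO and 548 in WT unstimulated cells. It was called lower in unstimulated KO cells at −0.38 ± 0.090 (adjusted p 0.000315), and was below WT but not called in stimulated cells at −0.29 ± 0.081 (adjusted p 0.00249). Its raw reads were lower in KO in both states, so its direction does not turn with the library totals. Dusp8 had ratios of −0.18 ± 0.17 and −0.30 ± 0.23, which its 74 to 156 reads a library cannot set apart from 0.

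The 2 states were then compared gene by gene. Called in the same direction in both were 2 genes, both higher (Jun and Zfp36l2; background 2.96%), and 0 lower (background 2.23%); 1 gene was called in opposite directions (Jund; background 0.277%). The sign of the ratio was the same in both states for 19 of the 35 genes, against 9438 of the 14823 genes of both tables. The stimulated ratio exceeded the unstimulated one by more than 3 counting SEs for 7 genes (Jund, Egr2, Ier5, Zfp36l1, Zfp36l2, Btg1 and Dusp5; background 3.56%), and fell short of it by as much for 5 (Fosl2, Atf3, Zfp36, Dusp4 and Dusp16; background 3.99%). All 12 are among the 19 genes with 1000 reads or more in all 4 libraries; of all genes that deep, 8.14% lay beyond 3 counting SEs in the first direction and 8.12% in the other. The largest differences in counting SEs were those of Btg1 (0.14 ± 0.013), Zfp36l1 (0.26 ± 0.029), Zfp36l2 (0.26 ± 0.029) and Jund (0.26 ± 0.035). With 1 library a group these differences have no replicate check.

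**Figure D3:**
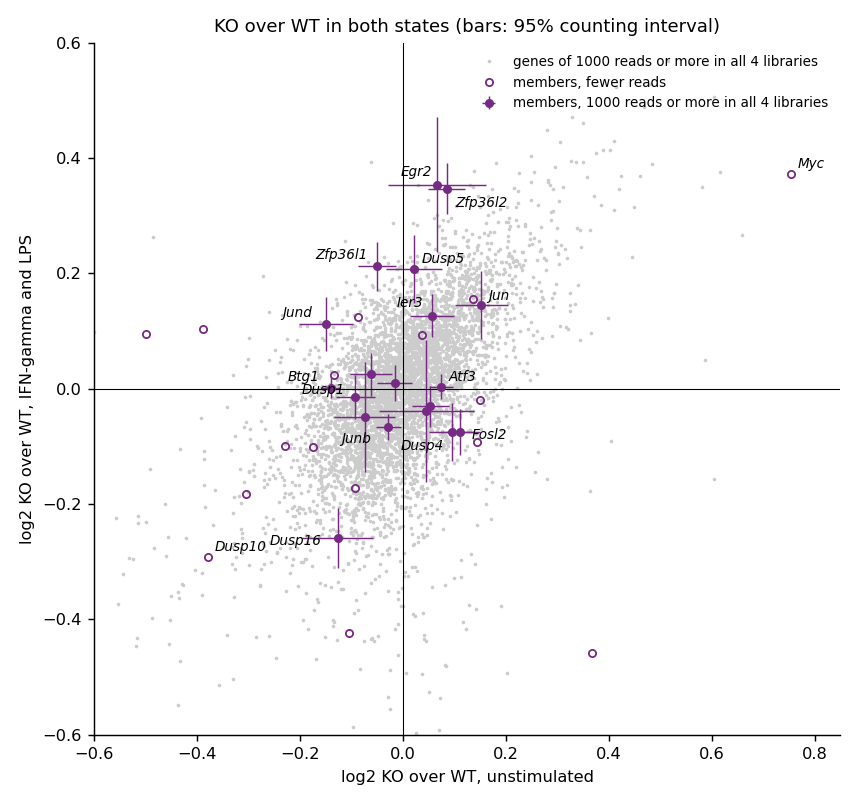
Log2 ratio of KO over WT after IFN-gamma and LPS (y axis) against that in unstimulated cells (x axis). Purple points are the 35 genes, filled with 95% counting intervals where all 4 libraries had 1000 reads or more; grey points are the 5309 genes that deep, 11 of them outside the axes. Jun and Zfp36l2 lie in the upper right, Jund in the upper left, and Dusp10 and Dusp16 in the lower left.

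Since reads per library were at hand, the response to IFN-gamma and LPS was read within each genotype, with log2 ratios of stimulated over unstimulated taken relative to the median gene and genes kept at 50 reads or more in the deeper of the 2 libraries. By library totals alone the median gene stood at −0.151 in KO and −0.15 in WT. Fos stood furthest below the median gene, at −1.20 ± 0.041 in KO and −1.23 ± 0.040 in WT cells. Dusp2, a phosphatase of activated leukocytes, stood highest of the genes kept in both, at 1.24 ± 0.19 in KO and 1.47 ± 0.20 in WT cells. Dusp8 was at 1.11 ± 0.21 in KO and 0.99 ± 0.20 in WT cells, and Dusp16 at 0.93 ± 0.031 in KO and 1.06 ± 0.031 in WT cells. Fosl1 was at 1.89 ± 0.37 in WT cells; its KO libraries held 49 and 28 reads, below the minimum. Thus 2 genes in KO (Dusp2 and Dusp8; background 3.04%) and 3 in WT (Fosl1, Dusp2 and Dusp16; background 3.83%) were 2-fold or more higher after stimulation, or 1 in KO by library totals, and Fos was the 1 gene 2-fold or more lower in each (background 1.17% and 1.07%). At 1.5-fold, 7 genes were higher and 3 lower in each genotype (background 7.01% and 4.72% in KO, 8.05% and 4.34% in WT).

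Families split in their response. Nr4a1 stood at 0.91 ± 0.11 in KO and 0.83 ± 0.11 in WT cells, whereas its relative Nr4a3 stood at −0.71 ± 0.055 in KO and −0.63 ± 0.056 in WT cells. Egr1 was at 0.75 ± 0.10 in KO and 0.61 ± 0.095 in WT cells, against −0.28 ± 0.052 in KO and −0.57 ± 0.057 in WT cells for Egr2. Dusp10 and Dusp16 were higher after stimulation. Of the cytoplasmic ERK phosphatases, Dusp6 was lower (−0.38 ± 0.070 in KO and −0.22 ± 0.073 in WT cells). Dusp7 was higher (0.43 ± 0.073 in KO and 0.22 ± 0.076 in WT cells). Dusp1, the gene that carries the full CRE printed above, was at 0.16 ± 0.019 in KO and 0.084 ± 0.019 in WT cells. Its sign changes in WT when scaled by library totals. The median of the set was 0.33 in KO and 0.30 in WT cells. Scaled by library totals it was 0.180 in KO and 0.152 in WT cells, and with a minimum of 200 reads 0.178 in KO and 0.238 in WT cells. A single time, 4 h after LPS, was sampled, and immediate early transcripts that peaked and fell before it are not seen here.

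**Figure D4:**
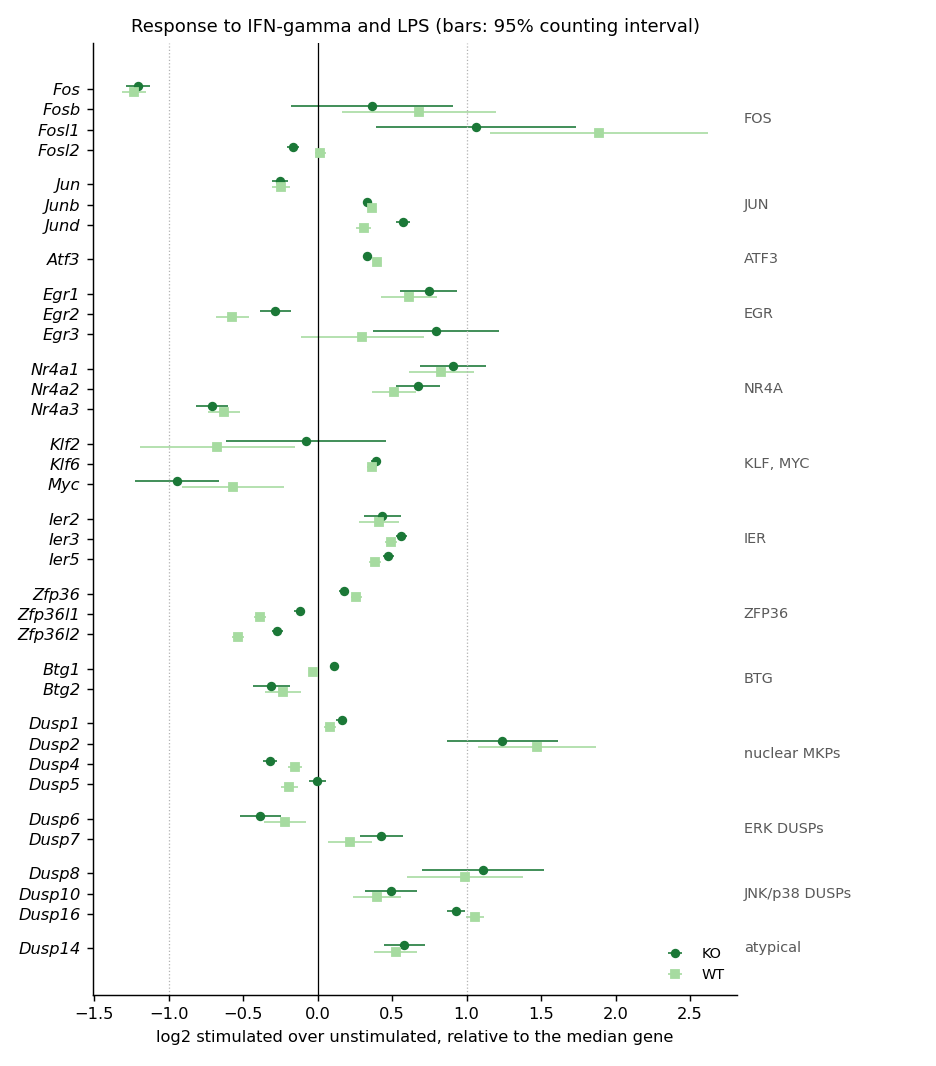
Log2 ratio of stimulated over unstimulated cells relative to the median gene (x axis) for each gene, with KO as dark circles above WT as light squares; bars are 95% counting intervals and dotted lines 2-fold. Fos lies below −1 and Dusp2 above 1 in both genotypes, and Fosl1 is drawn for KO though it had fewer than 50 reads there.

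The makeup of each family was read in percent of its RPKM. Fos made up 41.9% of the FOS family in KO and 41.2% in WT stimulated cells, and 60.1% in KO and 63.1% in WT unstimulated cells; Fosl2 took most of the rest. Junb was the main JUN transcript in every library, at 69.6% in KO and 72.3% in WT stimulated cells and at 69.5% in KO and 69.2% in WT unstimulated cells. Of the 10 phosphatases, Dusp1, Dusp4 and Dusp5 together formed most of the RPKM in each library. Dusp16 made up 7.41% in KO and 8.84% in WT stimulated cells, and 4.07% in KO and 4.43% in WT unstimulated cells.

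**Figure D5:**
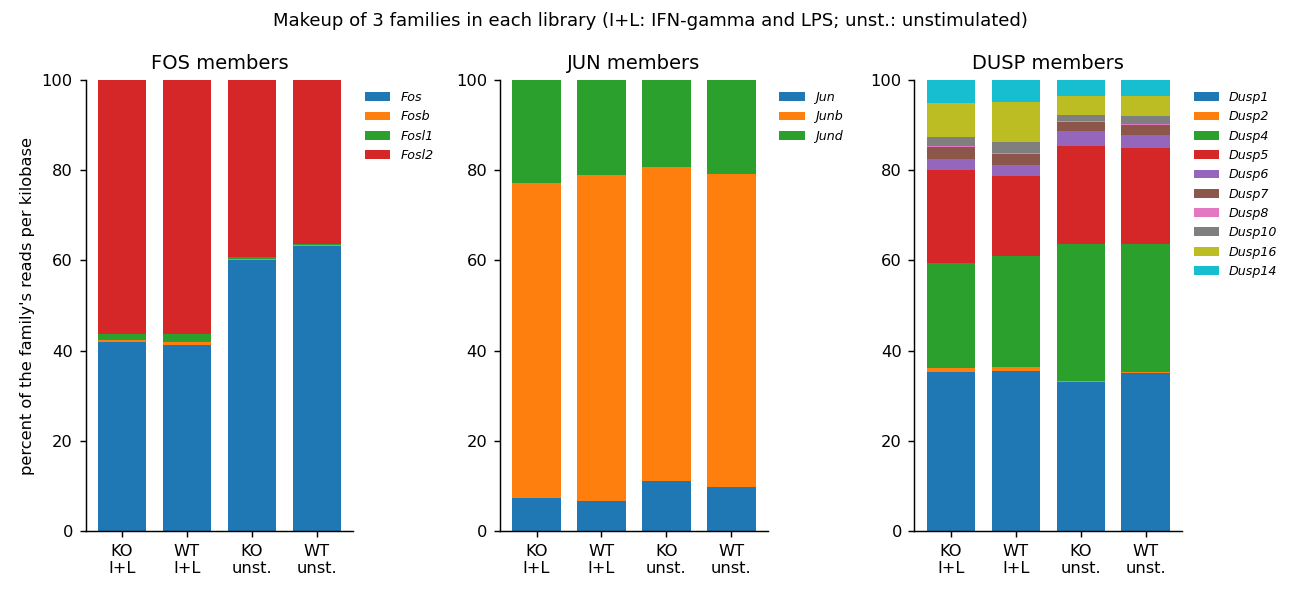
Share of each gene in the summed RPKM of its family (y axis, percent) in the 4 libraries (x axis) for the FOS, JUN and DUSP genes. Fos is the larger share of the FOS family in both unstimulated libraries and Fosl2 in both stimulated ones, and Junb leads the JUN family throughout.

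Other genes of these pathways were counted list by list. Over all genes tested, 5.36% were called higher and 6.54% lower in stimulated cells. The shares in unstimulated cells were 4.7% higher and 4.27% lower. Of 14 other AP-1 and bZIP factors, 3 were called higher and 0 lower in stimulated KO cells (Batf3 at 0.57 ± 0.041, Maff at 0.19 ± 0.039 and Nfil3 at 0.11 ± 0.021), and 2 higher and 1 lower in unstimulated KO cells. Batf3, a factor of cross-presenting dendritic cells, was at 79.7 CPM in KO and 53.7 CPM in WT stimulated cells, and at 86.1 CPM in KO and 60.2 CPM in WT unstimulated cells. Of 13 serum response, ternary complex, CREB and MEF2 factors, which drive immediate early promoters, 0 were called higher and 2 lower in stimulated KO cells (Elk4 at −0.43 ± 0.082 and Mkl2 at −0.24 ± 0.059), and 0 higher and 1 lower in unstimulated KO cells. Of 35 MAP kinase cascade genes, 1 was called higher and 4 lower in stimulated KO cells, with the kinase kinase kinases Map3k5 (ASK1) at −0.55 ± 0.10 and Map3k2 at −0.29 ± 0.045 and the ERK kinase Map2k1 at −0.20 ± 0.020. In unstimulated KO cells 1 of them was higher and 2 lower. The genes of these 3 lists called lower in unstimulated KO cells were Jdp2 (−0.13 ± 0.031), Mef2a (−0.17 ± 0.042), Map2k2 (−0.13 ± 0.031) and Mapkapk2 (−0.15 ± 0.019), and all 4 ratios turn above 0 as raw reads.

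Of 11 listed Sprouty, Spred and ERK-induced genes, 3 were called higher and 0 lower in each state. No Sprouty gene was among those called. The background for the lists of this paragraph was 5.36% higher and 6.54% lower in stimulated cells, and 4.7% and 4.27% in unstimulated cells. Phlda1 was at 169 CPM in KO and 128 CPM in WT stimulated cells (0.40 ± 0.028), and at 96.4 CPM in KO and 81.1 CPM in WT unstimulated cells (0.25 ± 0.036). Spred1, an inhibitor of RAS and RAF signalling, was at 0.18 ± 0.021 in stimulated and 0.30 ± 0.023 in unstimulated cells. Errfi1 at 0.22 ± 0.049 was the third in stimulated cells, and the cyclin gene Ccnd1 at 0.42 ± 0.10 the third in unstimulated cells. The median of this list was 0.14 in stimulated and 0.25 in unstimulated cells, against 0.0052 and 0.0013 over all genes. Of the other dual-specificity phosphatases, 11 were listed in the stimulated and 10 in the unstimulated table, and 0 were called in either. Of 28 further immediate early genes, 4 were called higher and 8 lower in stimulated KO cells, with Klf4 at −0.59 ± 0.036, the NF-kB inhibitor Tnfaip3 (A20) at −0.36 ± 0.014 and Sgk1 at −0.30 ± 0.028. In unstimulated KO cells 6 of them were called higher and 6 lower, with Cyr61 at 2.84 ± 0.54 on 41 reads in KO and 5 in WT, Ctgf at 1.30 ± 0.25 and Id1 at 0.57 ± 0.098. Cyr61 and Ctgf are abundant in fibroblasts, whose summed markers also differed between KO and WT as given above; the part of those cells in these ratios was not tested.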

How the data were processed

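Total RNA was made into strand-specific mRNA libraries (TruSeq), per the labels' protocols. FastQC 0.10.1, HTSeq 0.6.0 and the build mm10 are named, per the submitters' processing notes; for the aligner, annotation, strand setting and test, nothing is stated in the sources used here. The authors deposited 2 tables of KO over WT with a log2 ratio and a log10 p-value per gene, per the file headers; from its values, the second is the −log10 p-value as deposited, and further columns repeat both for marked genes.

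From the values, the deposited log2 ratio is that of whole reads, and the deposited p is that of a normal test of the ratio given the mean of both libraries (largest residual 3.4e-07 in −log10 p). Solving both gave 1 pair of reads for 99.4% of genes in each table; 50 (stimulated) and 51 (unstimulated) genes at the highest −log10 p, and 38 and 47 others, stayed without reads. On simulated data of 14836 (stimulated) and 14925 (unstimulated) genes, with counting noise alone, 0 pairs were wrong and 0 unchanged genes called. At 1.5-fold 96.8% (stimulated) and 90.4% (unstimulated) of changed genes were called. At 1.25-fold the shares were 61.3% (stimulated) and 76.8% (unstimulated). Changed genes were drawn only from those with a mean level above 200 reads at the WT library total. Above that floor the shares were not split by depth. They therefore give no rate for genes of few reads such as Fosb, Fosl1 and Klf2.

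Ratios were reduced by the zero point of the deposited p (−0.036 in stimulated and 0.191 in unstimulated cells), which is the log2 ratio of library totals. Exon lengths, positions and overlaps came from GENCODE M21 (GRCm38). The ± and intervals cover counting error only, and every gene listed has 1 read or more in both libraries. Members and lists were chosen with earlier results of these data known; all 35 members are named, and of other lists the called genes with the 3 largest ratios per state. The response to stimulation was added after seeing the data. Computations used Python 3.11.15, NumPy 2.4.6, pandas 2.3.3 and SciPy 1.17.1.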

Additional observations from a re-analysis of the deposited data

Results flagged for a closer look

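Jund drew a closer look because its KO library lay above the WT library in stimulated cells and below it in unstimulated cells: the stimulated minus unstimulated log2 ratio of KO over WT was 0.26. With 1 library a group, this difference was not tested against the spread between cultures.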

How the results depend on the processing

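Centring on the median gene, an exact binomial test of the reads (added after seeing the data) and the loss of genes with errors above that of 50 reads a library left the calls of the members they could give, and the direction of each called member, as they were. Centring turned the stimulated ratios of Atf3 and Btg1, neither called, just below 0, and the stimulated median was −0.0036 with it and −0.0066 without the genes of larger error. Without division by library totals (ratios as deposited), Jund (0.04), Btg1 (0.05) and Dusp1 (0.10) turned above 0 in unstimulated cells, 9 members were called higher and 1 lower there, 0 were called in opposite directions, the unstimulated median was 0.163 and the median difference between states −0.171. At an adjusted p under 0.01, 4 members were lower in stimulated cells, 4 were called in the same direction in both states and 2 in opposite ones. At 0.05, 6 were lower in stimulated cells, 7 were lower in unstimulated ones, and 5 went in the same and 4 in opposite directions. Scaled by library totals (chosen after seeing the data), 1 member in KO was 2-fold or more higher after stimulation and 2 lower, with medians of 0.180 in KO and 0.152 in WT; with a minimum of 200 reads, 0 in KO and 1 in WT were higher, with medians of 0.178 in KO and 0.238 in WT. These shifts follow from the settings' own construction. No paired analysis was possible because each group is 1 library and the labels carry no replicate numbers. Depth limits Fosb, Fosl1, Egr3, Klf2, Myc, Dusp2 and Dusp8, whose counting errors reach 0.15 or more in at least 1 state.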
